A study of Homo sapiens with 9 samples.

Results

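HOX genes of the A, B, C and D clusters were followed in A2780 cells, an established human ovarian carcinoma line, left untreated or treated for 24 h with DIG-MSK at 8 nM or at 80 nM. DIG-MSK is an analogue of mithramycin, an agent that binds GC-rich DNA, and the question of the study was how each concentration changes gene expression. RNA was measured on Agilent 1-colour arrays, with 3 arrays per group and 9 in all. Replicates are described as independent cultures of the line, and the labels name no difference between treated and control cells other than the drug. Members were chosen by symbol: every gene probe designed on a RefSeq protein-coding transcript of a HOX gene. They were 42 of 42405 gene probes, for 38 of the 39 HOX genes of the reference, and HOXA6 had no such probe.

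HOX genes encode homeodomain transcription factors that give cells their position along the body axis. They lie side by side in the clusters, numbered from the 3' end, which is used first and most anteriorly in the embryo, to the 5' end, which is used last and most posteriorly, and genes of the same number in different clusters are paralogs. In the female reproductive tract, genes with the numbers 9 to 13 of the HOXA cluster pattern the Müllerian duct, and adult tissues and tumours keep part of such a code. Trithorax proteins hold HOX genes active, Polycomb proteins hold them silent, retinoic acid opens the 3' end of the clusters, and PBX, MEIS and PKNOX proteins bind DNA together with HOX proteins.

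The level of a gene is given as the log2 of its background-corrected intensity relative to the 75th percentile of the same array, so that 0 is a gene at that percentile and each unit is a factor of 2. A probe counted as measured on an array where the scanner software marked it well above background, and the lowest signal so marked lay between -6.18 and -5.68 on the 9 arrays. Apart from the marker sums that follow, levels of different probes were not set against each other. Of the markers of epithelial and ovarian carcinoma cells, 6 of 10 were above background on all 9 arrays, with KRT8, KRT18 and EPCAM among them, while CDH1, WT1 and MUC16 were above background on none. Of 9 markers of immune, endothelial and fibroblast cells, 5 were above background on all arrays and PECAM1 was on none; their summed level was 0.996 times the 75th percentile in untreated cells, 1.19 times at 8 nM and 2.34 times at 80 nM. The rise of the sum was that of COL3A1, at 0.437, 0.681 and 1.85 times. The other 8 summed to 0.559, 0.512 and 0.486 times. Among these 8, DCN went from 0.267 to 0.102 times at 80 nM, and CD68 rose by 1.25 (SE 0.08) on the log2 scale. The part of these markers in the results below was not tested. All untreated and 8 nM arrays were on slide 1 and all 80 nM arrays on slide 2, scanned separately, so a difference of the 80 nM group from the others cannot be told apart from a difference between slides. Bulk RNA also does not separate fewer cells from less RNA per cell.

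Untreated A2780 cells held transcripts of most genes between HOXB2 and HOXB9 and between HOXC4 and HOXC10, and of scattered genes of HOXA and HOXD. In all, 21 of the 38 genes were well above background on all 3 untreated arrays. They were HOXA5, HOXA9 and HOXA10, HOXB2 to HOXB6 with HOXB8 and HOXB9, HOXC4, HOXC5, HOXC6, HOXC8, HOXC9 and HOXC10, and HOXD3, HOXD8, HOXD9, HOXD10 and HOXD13. Another 12 genes were above background on no array of any group, among them HOXA2, HOXA4, HOXA7, HOXA11, HOXA13, HOXB1, HOXB13, HOXC12, HOXC13, HOXD11 and HOXD12. The remaining 5 appeared on some arrays of a single group. HOXB7 was above background on 1 array at 8 nM, HOXD1 on 2 and HOXD4 on 1 at 8 nM, HOXC11 on 1 at 80 nM, and HOXA3 on 2 of 3 arrays at 80 nM. The HOXA3 probe read -8.13, -3.47 and -4.97 at 80 nM, against values from -8.40 to -7.94 on the other 6 arrays, so the 80 nM arrays themselves disagreed. These 17 genes were not tested.

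**Figure D1:**
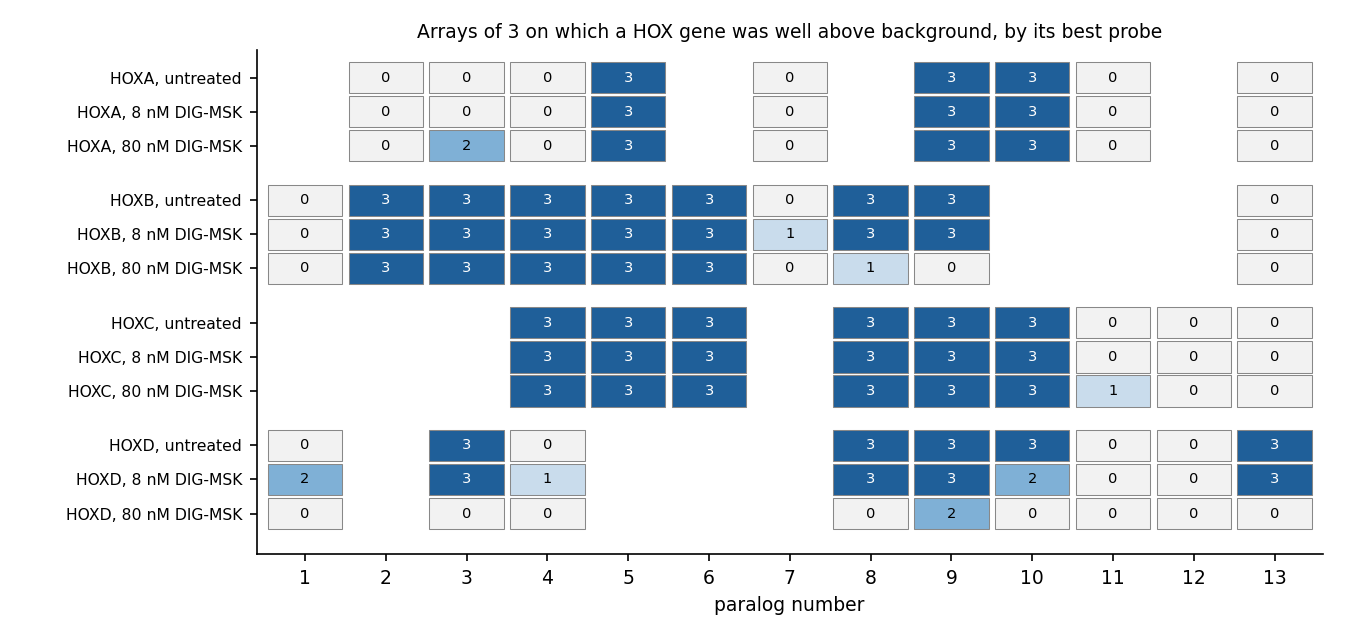
Number of arrays, of 3 per group, on which each HOX gene was well above background, by paralog number (x axis) and by cluster and treatment (rows); darker cells mean more arrays, and blank cells have no gene, no probe or are not shown. All 5 HOXD genes measured on every untreated array were below 3 arrays at 80 nM, while the 6 HOXC and 3 HOXA genes stayed at 3.

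With 8 nM DIG-MSK nearly all HOX genes stayed close to untreated cells, and with 80 nM most were down-regulated. By the rule used here, a change had to reach 1.5-fold upwards or 0.67-fold downwards and have p under 0.05 in limma before adjustment, and adjusted p-values are limma's with Benjamini-Hochberg adjustment over all 21832 genes tested. At 80 nM 15 of the 21 HOX genes tested were lower than in untreated cells and 0 were higher, while 16.3% of all genes tested were called lower and 18.8% higher. All 15 also passed with the adjusted p, at which 15.9% of all genes were lower and 18.4% higher. The median log2 change of the 21 genes was -0.97, or -0.86 with the 5 genes above background on no 80 nM array at their minimum fall, beside 0.08 for all genes tested. The 21 genes passed the filter through their untreated level. A count over the 14 genes above background on all 9 arrays was therefore added after seeing the data. Of these, 8 were lower and 0 higher, so every call among them was lower. With that filter on all genes, 2625 were lower and 3243 higher, so 44.7% of all calls were lower. That is a share of calls, and the share of all genes tested under that filter is not given here. The 8 of 14 therefore has no such share beside it. With scaling to the spike-in probes, the median change of all genes moved to -0.20 and the lower share of all calls from 46.5% to 71.9%. In that setting 5722 of the 21832 genes tested were lower and 2233 higher. Of the 21 HOX genes 18 were lower, now with HOXC4, HOXC6 and HOXC8, and 0 were higher. At 8 nM 1 of 21 was higher and 1 was lower, where 4.25% of all genes tested were called higher and 2.84% lower, and the median log2 change was 0.15 against -0.06 for all genes. With the adjusted p the 8 nM counts were 1 higher and 0 lower, beside 3.71% and 1.42% of all genes.

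**Figure D2:**
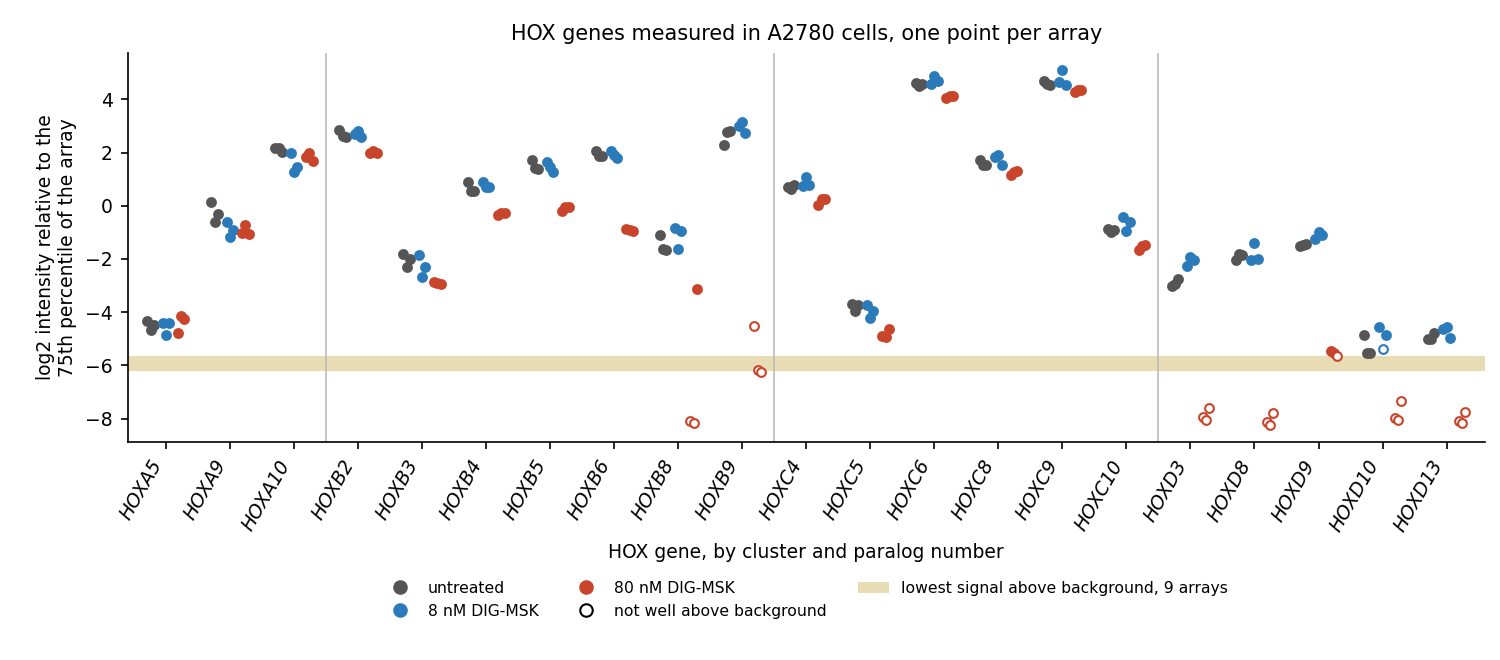
Level on each array (log2 intensity relative to the 75th percentile of the array, y axis) of the 21 HOX genes tested, ordered by cluster and paralog number; grey, blue and red points are the 3 untreated, 8 nM and 80 nM arrays, open points are spots not well above background, and the band spans the lowest signals above background. The 80 nM points lie below all untreated points for 20 of 21 genes (31.7% of all genes tested), with HOXA5 the exception, and HOXB9 and 4 HOXD genes have only open points at 80 nM.

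The 80 nM arrays lay below the untreated arrays without overlap for 20 of the 21 genes, as they did for 31.7% of all genes tested. All 7 HOXB genes and all 5 HOXD genes were called lower, against 2 of 6 HOXC genes and 1 of 3 HOXA genes. Median log2 changes were -1.61 for HOXB, -0.50 for HOXC and -0.30 for HOXA. No exact median can be given for HOXD, where 4 of 5 genes were above background on no 80 nM array; with those genes at their minimum fall it was -3.07. The clusters were measured on the same 9 arrays, and the differences between them were not tested.

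**Figure D3:**
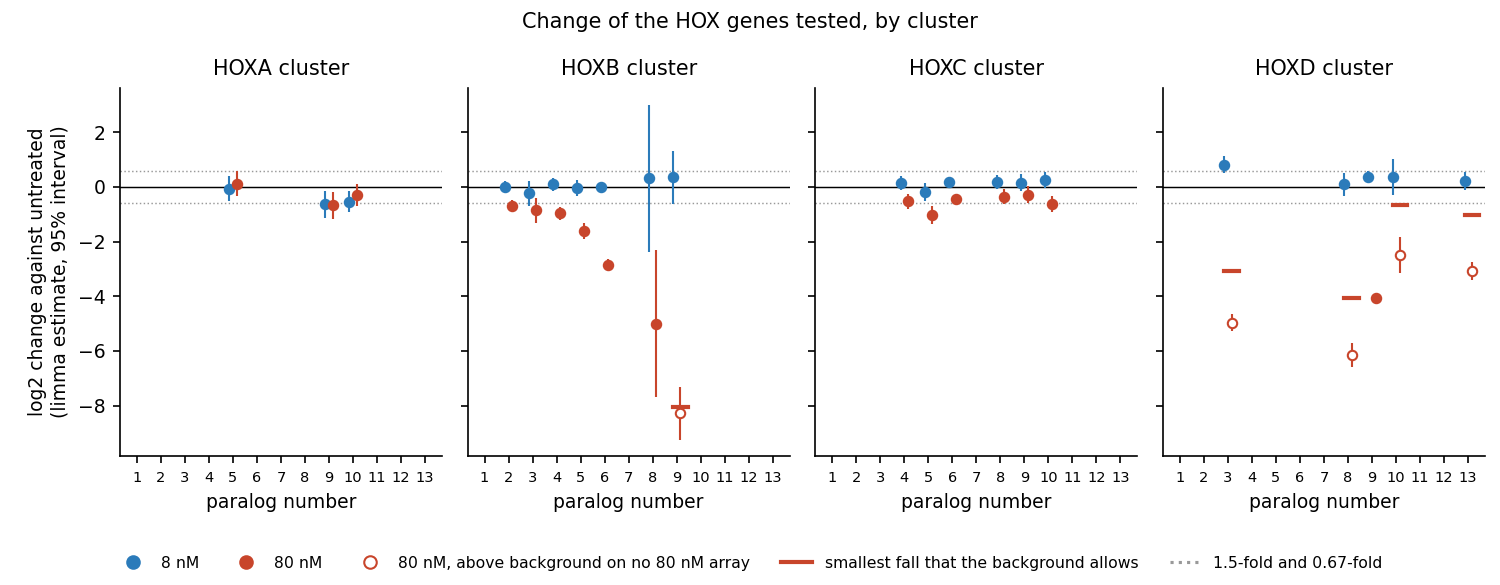
log2 change against untreated cells (y axis, limma estimate with its 95% interval) of the HOX genes tested, by paralog number (x axis) in each cluster; blue is 8 nM and red 80 nM, open points were above background on no 80 nM array, and short bars mark the smallest fall that the background allows. The red HOXB points descend from -0.69 at HOXB2 to -8.27 at HOXB9, and the red HOXC points stay between -1.03 and -0.29. All blue HOXD points are above 0, as are 5 of the 6 blue HOXC points.

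In the HOXB cluster the estimated fall at 80 nM was deeper at each step from the 3' to the 5' end, although for only 2 of the 6 steps, HOXB4 to HOXB5 and HOXB5 to HOXB6, were the 95% intervals apart. HOXB2, which acts in the embryonic hindbrain, read 2.85, 2.63 and 2.59 on the untreated arrays, 2.70, 2.81 and 2.58 at 8 nM and 1.97, 2.06 and 1.99 at 80 nM. HOXB3, its neighbour in the hindbrain, read -1.81, -2.30 and -2.00 untreated, -1.86, -2.67 and -2.31 at 8 nM and -2.85, -2.91 and -2.92 at 80 nM. HOXB4, known for expanding blood stem cells, read 0.91, 0.57 and 0.55, then 0.88, 0.72 and 0.69, then -0.36, -0.27 and -0.26. In each of these 3 genes the untreated and 8 nM arrays overlapped and the 80 nM arrays lay below both. The log2 changes at 80 nM against untreated were -0.69 (SE 0.09, adjusted p = 0.00037) for HOXB2, -0.86 (SE 0.20, adjusted p = 0.0061) for HOXB3 and -0.97 (SE 0.11, adjusted p = 0.00012) for HOXB4. Their 95% intervals overlapped, and differences between these 3 falls were not tested. HOXB2 had a second probe that gave 0.12 (SE 0.14) at 80 nM, with which the fall of HOXB2 was not seen.

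Further towards the 5' end the loss was larger. HOXB5, which takes part in lung and gut nervous system development, read 1.73, 1.41 and 1.39 untreated, 1.66, 1.45 and 1.29 at 8 nM and -0.21, -0.04 and -0.04 at 80 nM, a log2 change of -1.61 (SE 0.13, adjusted p = 1.8e-05) or 3.05-fold lower. HOXB6 read 2.08, 1.89 and 1.86 untreated, 2.05, 1.92 and 1.78 at 8 nM and -0.88, -0.91 and -0.95 at 80 nM, a log2 change of -2.85 (SE 0.09, adjusted p = 1.3e-07) or 7.22-fold lower. Neither gene separated the 8 nM from the untreated arrays, and both stayed well above background at 80 nM. The 95% interval of HOXB6, from -3.06 to -2.64, did not reach that of HOXB5, from -1.90 to -1.32, and the latter did not reach that of HOXB4, from -1.22 to -0.72.

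The 5' genes HOXB8 and HOXB9 reached the background. HOXB8, whose forced expression keeps myeloid precursors immature, read -1.10, -1.62 and -1.67 untreated, -0.84, -1.64 and -0.96 at 8 nM and -8.08, -8.16 and -3.14 at 80 nM. A single 80 nM array, replicate 3, was thus above background, and it too lay below every untreated array. The log2 change of HOXB8 was -5.00 (SE 1.18, adjusted p = 0.0065), -6.66 without 80 nM replicate 3, -4.19 without replicate 1 and -4.15 without replicate 2. As 2 of the 3 values at 80 nM were not above background, its size depended on the background correction, and it was -2.20 with normexp and -2.81 with the authors' log2 values. The 95% interval of HOXB8, from -7.69 to -2.30, took in that of HOXB6 and overlapped that of HOXB9, from -9.24 to -7.31. These intervals alone do not place HOXB8 between HOXB6 and HOXB9, and the differences between these genes were not tested. HOXB9 read 2.28, 2.78 and 2.82 untreated, 3.02, 3.16 and 2.75 at 8 nM and -4.52, -6.18 and -6.23 at 80 nM, where no spot was marked well above background. In the processed intensity HOXB9 was therefore at least 265-fold lower at 80 nM than in untreated cells (adjusted p = 1.5e-06) and at least 337-fold lower than at 8 nM. Its log2 change was -8.27 in that intensity, -5.99 with normexp and -6.65 with the authors' values, so these minimum folds hold for the first of these only. For a probe above background on no array of a group, "at least" sets the mean of the measured group against the higher of the probe's own signal and the lowest signal above background on each array, in the processed intensity, here and below. HOXB7, between HOXB6 and HOXB8, read -5.60, -5.78 and -6.08 untreated and -7.88, -7.47 and -7.49 at 80 nM, all not well above background.

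Over the 7 HOXB genes tested, Spearman's rho between paralog number and log2 change at 80 nM was -1, as a description over neighbouring genes of 1 cluster on the same arrays. At each of the 6 steps the estimate went further down. The same held under each other setting in which the 7 genes were refitted, except for normexp background correction. With normexp 4 of 6 steps did so, and rho was -0.929. The step from HOXB6 to HOXB8, where HOXB8 fell less, went the other way, and it was not the only such step. At 8 nM the 7 estimates ran from -0.24 for HOXB3 to 0.35 for HOXB9, and none was called.

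All 5 HOXD genes present in untreated cells fell to or near the background at 80 nM. HOXD3, linked to the adhesive and invasive behaviour of endothelial cells, read -3.02, -2.93 and -2.75 untreated, -2.28, -1.94 and -2.04 at 8 nM and -7.96, -8.04 and -7.62 at 80 nM, so it was at least 8.39-fold lower at 80 nM than in untreated cells (adjusted p = 6.1e-08). HOXD8 read -2.02, -1.81 and -1.86 untreated, -2.05, -1.39 and -1.99 at 8 nM and -8.11, -8.22 and -7.80 at 80 nM, at least 16.8-fold lower (adjusted p = 8.9e-08). With normexp and with the authors' values the log2 changes were smaller than these minimum folds, -1.35 and -2.00 for HOXD3 and -2.09 and -2.81 for HOXD8. No 80 nM array detected either gene, and every untreated and 8 nM array did. HOXD9 read -1.52, -1.47 and -1.44 untreated, -1.24, -0.99 and -1.10 at 8 nM and -5.45, -5.54 and -5.66 at 80 nM, with 2 of the 3 last values above background, a log2 change of -4.07 (SE 0.09, adjusted p = 1.7e-08) or 16.8-fold lower, but -2.26 with normexp and -2.83 with the authors' values. A second HOXD9 probe, above background on no 80 nM array, was at least 2.51-fold lower, in the same direction.

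The 5' genes HOXD10 and HOXD13 were closer to the background to start with, so less of a fall could be measured. HOXD10, a posterior gene of the limb and lumbar spinal cord, read -4.87, -5.52 and -5.52 untreated, -4.54, -5.40 and -4.86 at 8 nM, where replicate 2 was not above background, and -7.97, -8.06 and -7.33 at 80 nM, at least 1.59-fold lower than untreated (adjusted p = 0.00014). HOXD13, the last gene of the cluster, which patterns the digits, read -4.99, -4.99 and -4.80 untreated, -4.63, -4.56 and -4.95 at 8 nM and -8.09, -8.18 and -7.77 at 80 nM, at least 2.06-fold lower than untreated (adjusted p = 8.4e-07). Both were below background on all 80 nM arrays. With normexp in place of the processed intensity, the log2 changes of HOXD10 and HOXD13 at 80 nM were -0.30 and -0.54. Neither passed the fold limit any longer, and limma's adjusted p was 0.077 for HOXD10 and 0.0033 for HOXD13. With the authors' values the changes were -0.60 and -1.0. HOXD1 and HOXD4, above background on no untreated array, also read lower at 80 nM, between -7.72 and -7.65 for HOXD1 and between -8.23 and -7.83 for HOXD4, against -6.24 to -5.84 and -6.17 to -5.96 untreated, but all of these values were at the background and were not tested. Thus no HOXD gene was above background on all 80 nM arrays.

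The HOXD genes also held the only rise at 8 nM. HOXD3 was higher at 8 nM than in untreated cells by 0.81 on the log2 scale, 1.76-fold (SE 0.14, adjusted p = 0.0079), and all 3 of its 8 nM arrays lay above all untreated arrays, as for 15.8% of all genes tested. HOXD9 lay above without overlap as well, by 0.37 (SE 0.09, adjusted p = 0.028), which is under the fold limit. The estimates of HOXD8, HOXD10 and HOXD13 were 0.09, 0.37 and 0.22, all above 0, with overlapping arrays and adjusted p from 0.33 to 0.77. Over all clusters 14 of the 21 HOX estimates at 8 nM were above 0, 5 of the 6 of HOXC among them. Of the 14 HOX genes above background on every array, 7 had an estimate above 0 and 7 below. The share of all genes with an estimate above 0 is not given here. With normexp the HOXD3 change at 8 nM was 0.58, just under the fold limit. Against the 8 nM arrays, the 80 nM arrays were lower for all 5 HOXD genes, by at least 14.7-fold for HOXD3 and at least 17.9-fold for HOXD8.

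The promoters of the HOXD genes that were lost are shown because DIG-MSK is an agent for GC-rich DNA and the GC box, the site of Sp1-family factors, is the site whose use the study asked about. RefSeq promoter windows on GRCh38.p14 could be matched to 8 of the 21 genes tested, in 9 windows, and the 250 bases before the start were read on the strand of the gene. Capitals mark GC boxes, searched as GGGCGG and CCGCCC, that is on both strands. The windows of HOXD3 (chr2:176157057-176157306), HOXD8 (chr2:176129455-176129704), HOXD10 (chr2:176116528-176116777) and HOXD13 (chr2:176092471-176092720), all on the plus strand, follow, and below them the window that the table gives for both HOXC4 and HOXC5 (chr12:54016638-54016887, plus strand).
HOXD3: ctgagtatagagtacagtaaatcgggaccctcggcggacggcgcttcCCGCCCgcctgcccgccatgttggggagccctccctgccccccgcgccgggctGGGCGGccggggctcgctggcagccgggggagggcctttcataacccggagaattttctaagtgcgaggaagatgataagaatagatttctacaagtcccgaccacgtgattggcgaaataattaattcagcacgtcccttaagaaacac
HOXD8: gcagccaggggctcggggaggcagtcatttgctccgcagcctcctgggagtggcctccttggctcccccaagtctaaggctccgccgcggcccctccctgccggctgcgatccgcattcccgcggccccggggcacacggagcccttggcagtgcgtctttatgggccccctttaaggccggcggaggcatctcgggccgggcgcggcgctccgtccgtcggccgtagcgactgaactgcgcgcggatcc
HOXD10: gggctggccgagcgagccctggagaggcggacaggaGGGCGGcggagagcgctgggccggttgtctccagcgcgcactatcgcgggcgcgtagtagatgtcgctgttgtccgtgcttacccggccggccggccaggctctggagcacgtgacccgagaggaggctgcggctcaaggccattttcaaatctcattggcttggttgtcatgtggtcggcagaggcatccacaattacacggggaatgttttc
HOXD13: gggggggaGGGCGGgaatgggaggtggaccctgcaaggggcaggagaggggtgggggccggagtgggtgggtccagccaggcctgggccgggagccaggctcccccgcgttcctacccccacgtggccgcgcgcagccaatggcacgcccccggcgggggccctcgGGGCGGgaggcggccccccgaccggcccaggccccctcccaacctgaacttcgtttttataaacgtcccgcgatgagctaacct
HOXC4 and HOXC5: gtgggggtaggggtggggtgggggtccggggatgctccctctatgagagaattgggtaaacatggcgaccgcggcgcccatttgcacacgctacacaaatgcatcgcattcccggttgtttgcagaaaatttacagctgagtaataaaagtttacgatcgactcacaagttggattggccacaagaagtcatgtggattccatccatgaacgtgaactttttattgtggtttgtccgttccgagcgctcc
HOXD3 and HOXD13 held 2 GC boxes each, at a GC content of 59.2% and 74.0%, and HOXD10 held 1 at 64.0%. HOXD8 held 0 with a GC content of 72.4%. The HOXC4 and HOXC5 window held 0 at a GC content of 50.8%. So did the window of HOXA9 at 48.8% and both windows of HOXA10, at 65.2% and 58.8%. Of these genes outside HOXD, HOXC5 and HOXA9 were called lower at 80 nM, and HOXC4 and HOXA10 were not. Of all 35116 windows of this length in the table, 42.6% held a GC box, and their median GC content was 58.0%. HOXD8, with 0 of these letters, was among the genes that reached background at 80 nM, and a match is a description of the letters and not of a bound site.

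Most HOXC genes changed by less than the fold limit. HOXC6, a gene of the thoracic region, read 4.61, 4.49 and 4.58 untreated, 4.59, 4.86 and 4.71 at 8 nM and 4.06, 4.11 and 4.11 at 80 nM, a log2 change at 80 nM of -0.46 (SE 0.08, adjusted p = 0.0017). HOXC9, which marks thoracic motor neurons, read 4.70, 4.58 and 4.55 untreated, 4.64, 5.09 and 4.55 at 8 nM and 4.28, 4.34 and 4.35 at 80 nM, a change of -0.29 (SE 0.13, adjusted p = 0.095). Both had 80 nM arrays below all untreated arrays but by less than the fold limit, as did HOXC4 at -0.53 (SE 0.11, adjusted p = 0.004) and HOXC8 at -0.35 (SE 0.11, adjusted p = 0.026).

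HOXC5 and HOXC10 were the HOXC genes called lower at 80 nM. HOXC5 read -3.68, -3.94 and -3.73 untreated, -3.72, -4.21 and -3.96 at 8 nM and -4.89, -4.94 and -4.63 at 80 nM, a log2 change of -1.03 (SE 0.14, adjusted p = 0.00039). HOXC10, a gene of the lumbar spinal cord, changed by -0.64 (SE 0.13, adjusted p = 0.0026). The call of HOXC5 was lost with normexp (-0.31) and with the authors' log2 values (-0.49), and that of HOXC10 with normexp (-0.54). HOXC4, HOXC5 and HOXC6 lie in overlapping transcription units that share a first exon, so their probes may read some of the same RNA. At 8 nM the estimates of the 6 HOXC genes ran from -0.18 to 0.25 and none was called.

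In the HOXA cluster, HOXA9 was the gene called lower at both concentrations, although its 8 nM arrays overlapped its untreated arrays. HOXA9, a leukaemia gene that also patterns the fallopian tube, read 0.16, -0.60 and -0.30 untreated, -0.60, -1.17 and -0.91 at 8 nM and -1.02, -0.72 and -1.05 at 80 nM. The log2 change of HOXA9 was -0.65 at 8 nM (SE 0.21, adjusted p = 0.083) and -0.68 at 80 nM (SE 0.21, adjusted p = 0.024), and the 8 nM and 80 nM arrays overlapped, with a difference of -0.03 (95% interval -0.52 to 0.46). The first of these calls did not pass adjustment, and both were lost without untreated replicate 1, with -0.44 at 8 nM and -0.48 at 80 nM; the 8 nM call was lost too without 8 nM replicate 2 (-0.51) and with spike-in scaling (-0.57). HOXA10, needed for the receptive uterus, changed by -0.55 (SE 0.17, adjusted p = 0.07) in 8 nM cells and by -0.30 (SE 0.17, adjusted p = 0.16) in 80 nM cells, neither of them called, although the 8 nM change passed the fold limit without untreated replicate 3 (-0.60) or without 8 nM replicate 1 (-0.74). All 8 nM and 80 nM arrays of HOXA10 lay below its untreated arrays. HOXA5 changed by 0.11 at 80 nM with overlapping arrays, and by -0.17 with spike-in scaling. HOXA9 and HOXA10 each had a second probe that was above background on no array, so the probes of these genes disagreed on whether the transcript was there.

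Directly compared, 16 of 21 HOX genes were lower at 80 nM than at 8 nM and 0 were higher, where 14.2% of all genes tested were called lower and 19.5% higher. They were the 15 genes lower against untreated, less HOXA9, with HOXC4 (-0.69, adjusted p = 0.0011) and HOXC6 (-0.62, adjusted p = 0.00035) in addition. Both comparisons use the same 80 nM arrays, all on slide 2, so their calls are not independent. Without 8 nM replicate 2 neither HOXC4 nor HOXC6 passed the fold limit, with -0.58 and -0.55. HOXB3, at -0.62 (adjusted p = 0.028), fell short of the fold limit without 8 nM replicate 1 (-0.41), with normexp (-0.46) and with the authors' values (-0.51). HOXC5 was also lost with both of these (-0.30 and -0.47), HOXD10 with normexp (-0.46) and HOXB2 with the mean of its probes (-0.30). HOXC8, at -0.53, passed the fold limit with quantile normalization (-0.59), spike-in scaling (-0.89), the authors' values (-0.62) and without 8 nM replicate 3 (-0.64), and HOXC9 did with spike-in scaling (-0.80).

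Among genes that work with the HOX genes, some were down-regulated at 80 nM too. Of the HOX cofactors of the TALE class, 10 were tested and 4 were lower and 0 higher, where 16.3% of all genes were lower and 18.8% higher: MEIS3 (-2.33, SE 0.10, adjusted p = 5.5e-07), PKNOX1 (-0.97), MEIS2 (-0.79) and MEIS1 (-0.66). None of the 10 was called at 8 nM, where 4.25% of all genes were higher and 2.84% lower. Of 15 ParaHox genes and genes of retinoic acid supply and response, 8 were tested and 3 were lower and 0 higher at 80 nM, beside the same shares of all genes. ALDH1A2, the embryo's main enzyme of retinoic acid synthesis, was at least 14.2-fold lower (adjusted p = 0.0036), or at least 4.68-fold without untreated replicate 1, which read 1.07 where the other two read -3.71 and -3.78, CYP26A1, which degrades retinoic acid, changed by -1.57 (SE 0.12, adjusted p = 1.6e-05) and the receptor gene RARA by -0.70 (SE 0.10, adjusted p = 0.00049). At 8 nM ALDH1A3, another synthetic enzyme, was higher by 1.93 (SE 0.52, adjusted p = 0.044), with 1 untreated and all 3 8 nM arrays above background.

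Of 13 Trithorax genes, the activators of HOX clusters, 8 were lower at 80 nM and 0 higher, or 61.5% lower beside 16.3% of all genes. The changes furthest down were those of ASH1L, a histone methyltransferase (-1.49, SE 0.14, adjusted p = 5.5e-05), RBBP5, a core subunit of the KMT2 complexes (-1.39), KDM6A, which removes the Polycomb mark (-1.32), and DOT1L, the H3K79 methyltransferase (-0.99). Of 24 Polycomb genes tested, 4 were higher and 4 lower, 16.7% each way and close to the 18.8% and 16.3% of all genes. JARID2 (-1.41, SE 0.08, adjusted p = 2.3e-06) and MTF2 (-0.91), which help PRC2 to its targets, fell, and PHC1 (0.87) and CBX7 (0.86), subunits of PRC1, rose. At 8 nM 0 of 13 Trithorax genes were called at the unadjusted or the adjusted threshold of limma, and of the Polycomb genes EZH1 was higher (0.61, adjusted p = 0.0038) and PHF19 lower (-0.67, adjusted p = 0.0023). Of all genes tested, 4.25% were called higher and 2.84% lower at 8 nM.

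Of 14 genes just outside the clusters, 10 were tested, and 1 was lower and 3 were higher at 80 nM, counts too small to set apart from the 16.3% and 18.8% of all genes. SKAP1, the neighbour of HOXB1 at the 3' end of the HOXB cluster, read at least 7.82-fold lower (adjusted p = 8.8e-08), although HOXB2 was the HOXB gene with the smallest fall. CALCOCO1, beside HOXC13, was higher under both treatments, by 0.77 at 80 nM (adjusted p = 0.00037) and by 1.00 at 8 nM (adjusted p = 0.00092), and HIBADH (0.68) and CBX5 (0.63) were higher at 80 nM. MTX2 and LNPK, on either side of the HOXD cluster, changed by 0.15 (SE 0.07, adjusted p = 0.1) and -0.39 (SE 0.12, adjusted p = 0.02) at 80 nM, neither of them called, and the change of MTX2 is smaller than the shift that spike-in scaling gives all genes. Of the noncoding genes inside the clusters, 5 had a probe and HAGLR, next to HOXD1, was the one tested: it fell by 2.62 on the log2 scale at 80 nM (SE 0.57, adjusted p = 0.0046), with 1 of 3 arrays above background.

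Homeobox genes outside the clusters were mostly lower at 80 nM as well. Of 81 tested, 46 were lower and 3 higher at 80 nM, or 56.8% and 3.7%, beside 71.4% and 0% of the HOX genes. The difference between the lists was not tested. These genes were drawn by symbol, and ISLR and PAXX among them, not called at 80 nM, are not homeobox genes. Not all of them share the DNA-binding domain of the HOX genes. Among them, PAX2, a marker of Müllerian epithelium, read between 4.27 and 4.36 untreated and between -6.85 and -5.80 at 80 nM, where 1 of 3 arrays was above background. In the processed intensity ISL1 was at least 186-fold lower and NKX2-1 at least 59.8-fold lower. At 8 nM 5 of these 81 genes were lower and 0 higher, or 6.17% lower, beside 2.84% lower and 4.25% higher of all genes tested. With limma's adjusted p 2 were lower, beside 1.42% of all genes.

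**Figure D4:**
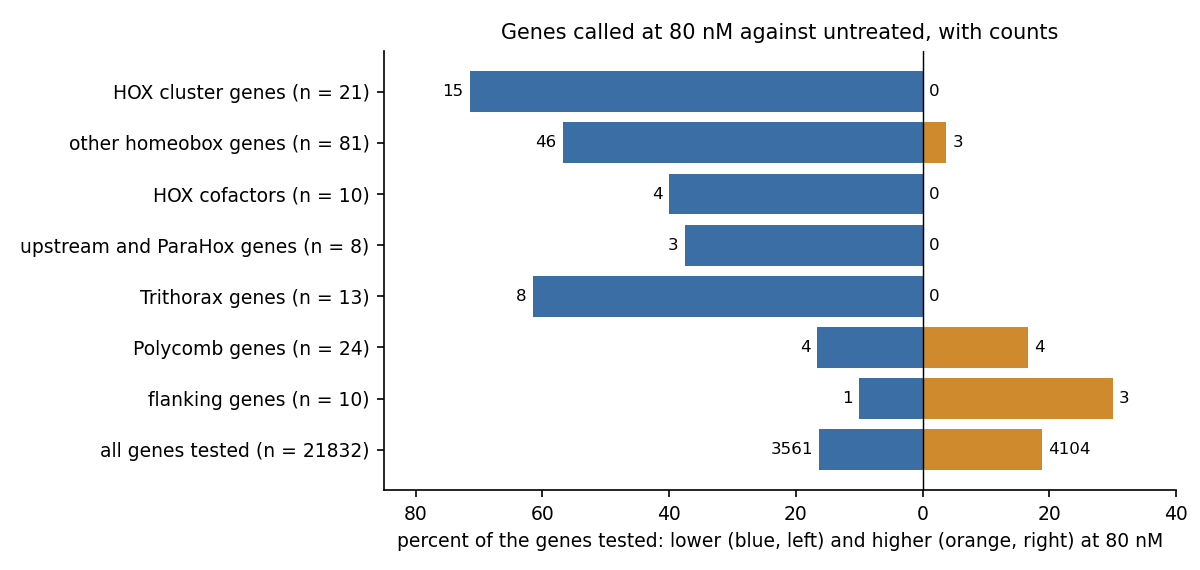
Percent of the genes tested in each list that were called lower (blue bars, to the left) or higher (orange bars, to the right) at 80 nM against untreated cells, with the counts beside the bars. The lower share was 71.4% for HOX genes, 56.8% for other homeobox genes and 61.5% for Trithorax genes, beside 16.3% of all genes, while Polycomb genes were split 4 to 4.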

How the data were processed

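Total RNA of A2780 cells was labelled with Cy3, and the authors extracted spot intensities with Agilent Feature Extraction 10.7.3.1, per the file headers. The deposited processed intensity is background-corrected and not scaled between arrays. The deposited log2 values, made by the authors, tracked the log2 median spot signal (r from 0.99856 to 0.99981) and served as an alternative. Control and outlier spots were left out. The log2 intensity minus the array's 75th percentile was tested in R 4.3.3 with limma 3.58.1 on all 9 arrays (checked on simulated data). The filter kept 26457 probes, each marked well above background throughout at least 1 group of 3 arrays, and the probe with the highest mean stood for a gene (21832 genes). Probes were named by RefSeq accession through a table of GRCh38.p14 (25713 of 26576 matched). The percentile lay between 831.7 and 1170 intensity units, and negative controls read 31.1 to 38.6 (slide 1) and 22.1 to 22.7 (slide 2). Precision rests on 3 arrays per group.

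Members and lists were chosen with earlier results of these data known. Array values are given for the called members with the largest changes, for the members with the highest untreated levels and for HOXA9, which was added after its values were seen; in each context list up to 4 called genes are named, the furthest changed, a few of them not reported here, and MTX2 and LNPK were added in the same way as HOXA9. Deviations of same-numbered untreated and 8 nM arrays correlated at 0.114, 0.101 and 0.163 over genes, and differently numbered ones at -0.124 to -0.00301. For the 80 nM arrays the same-numbered values ran from -0.124 to 0.0155. Differently numbered 8 nM and 80 nM arrays reached 0.125, so these values do not show that the numbers pair. The main fit used no pairing. Alternatives were other scalings, normexp, the authors' values, other filters, the probe mean, the replicate block and leaving out each array.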

Additional observations from a re-analysis of the deposited data

How the results depend on the processing

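No change of a HOX gene turned its direction past the threshold under any alternative run. At 8 nM, where 2 HOX genes were called, the count was 1 with spike-in scaling, with normexp, with the filter on all 9 arrays and with the adjusted p, and between 1 and 3 when each array was left out. At 80 nM against untreated the count of 15 became 8 with the filter on all 9 arrays, and also 8 when only members above background on all 9 arrays were counted; leaving out each array gave 14 to 16. For 80 nM against 8 nM the count of 16 became 9 under both of these, and 14 to 17 when each array was left out. With the filter on all 9 arrays, 2625 of all genes were lower and 3243 higher against untreated. Against 8 nM they were 2237 and 3225. With normexp the 80 nM counts were 11 against untreated and 13 against 8 nM, and with the authors' values 14 and 15. Over all genes, normexp gave 2411 lower and 2325 higher against untreated, and 2136 and 2107 against 8 nM. The authors' values gave 2862 lower and 2858 higher, and 2610 and 2651. Where no count over all genes is given, as for the arrays left out, the HOX counts have no such share beside them. The replicate block left the counts at 2, 15 and 16 and changed no call, and a block fitted to the untreated and 8 nM arrays alone, chosen after seeing the data, gave 2. Over single genes, 1228 changes kept their side of the threshold, 21 lost it and 11 gained it. With spike-in scaling the median over all genes tested at 80 nM was -0.20 in place of 0.08, and 71.9% of all calls were lower in place of 46.5%. There 5722 of the 21832 genes tested were lower and 2233 higher, beside 18 HOX genes lower and 0 higher. Without a filter 19 of 38 HOX genes were lower and 2 higher at 80 nM. Over all genes 4253 were lower and 5191 higher, so 45.0% of all calls were lower. Folds of genes that reached background depend on the background correction: HOXD8 changed by -6.15 at 80 nM with the processed intensity, -2.09 with normexp and -2.81 with the authors' values, and HOXB9 by -8.27, -5.99 and -6.65. With the mean of the probes HOXB2 changed by -0.28 and was not called. The causes of these shifts were not tested.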
